A study of Mus musculus with 20 samples.

Results

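The genes described here were 9 transcription factors that set intestinal and gastric identity, namely Cdx1, Cdx2, Hnf4a, Hnf4g, Gata4, Gata5, Gata6, Pdx1 and Sox2. They were taken by name: every probe whose gene name in the scanner files equals one of these symbols was kept, which gave 14 probes out of 56605 on the array and 9 genes out of 24980 that RefSeq names. Hnf4a, Gata4, Gata5, Gata6 and Pdx1 had 2 probes each, and the others had 1.

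CDX1 and CDX2 are homeobox factors that turn on the intestinal programme along the gut, and CDX2 is the factor whose loss lets intestinal epithelium take on stomach-like features. HNF4A and HNF4G are nuclear receptors that drive the genes of absorptive enterocytes. GATA4, GATA5 and GATA6 are zinc finger factors of endoderm, and GATA4 marks the proximal but not the most distal small intestine. PDX1 is a homeobox factor of the duodenum, the gastric antrum and the pancreas, and SOX2 is the high-mobility-group factor of stomach and oesophagus.

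RNA of mouse intestinal tissue from C57BL6/j animals was hybridised to 20 one-colour Agilent arrays, 1 array per mouse, in 4 groups. The Cre control group held 6 mice with the VillinCreER transgene and no mutant Braf allele, and the BRAFV600E group held 6 mice with VillinCreER and 1 conditional BrafV600E-LSL allele. Both received tamoxifen at 8 to 12 weeks of age on 3 successive days and were harvested 3 days later, so control mice also carried the Cre and the drug. In the second experiment 4 mice received the MEK inhibitor PD184352 (MEKi) and 4 received vehicle after tamoxifen. The labels give no genotype for these 8 mice, and the study's legends describe them as carrying the mutant allele. The Villin promoter restricts Cre to gut epithelium, whereas the RNA came from whole pieces of intestine whose position along the gut is not stated in the sources used here. Fewer cells of a type and less RNA per cell cannot be told apart in such tissue.

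Levels are given as log2 of the background-subtracted signal minus the 75th percentile of the same array, so a level of 0 equals that percentile. Levels of different probes are not set against each other, because probes differ in brightness. Between 60.8% and 76.8% of probes were well above background per array, and the 75th percentile of signal ranged from 525 to 1518. Correlations between arrays of a group ran from 0.947 to 0.992. Epithelial markers such as Epcam, Cdh1 and Vil1 were well above background on every array, with a summed list level between 9.37 and 10.47. Arrays of this kind do not separate the Braf alleles, and the 4 Braf probes gave no called difference in either comparison, with log2 fold changes of -0.14 to 0.90 for BRAFV600E and -0.50 to -0.13 for MEKi.

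A pair of arrays stood apart, and both bear on the results below. BRAFV600E 2 and Vehicle 2 had a summed level of 21 gastric and foregut genes of 8.12 and 6.73, against 1.28 to 4.04 on the other 18 arrays. Vehicle 2 also had all 10 exocrine pancreas genes above background, with a summed level of 11.1 against -0.44 to 0.79 on those 18 arrays. On BRAFV600E 2 the same sum was 0.31, within their range. The slides also differed: slide 1 held all 6 Cre control arrays with BRAFV600E 1 and 2, slide 2 held BRAFV600E 3 to 6, and slide 3 held MEKi in its first row and Vehicle in its second, so that row and group cannot be told apart in the MEKi comparison. A fit with slide as a block therefore takes its BRAFV600E difference from slide 1, that is from BRAFV600E 1 and 2. The slope of the spike-in controls was out of the scanner's range on Cre control 2, 3 and 5 (0.77, 0.84 and 0.76). It was also out of range, at 0, on BRAFV600E 3 to 6.

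Pdx1 and Cdx2 lie side by side on mouse chromosome 5, in the gene cluster that also holds Gsx1, and their probes here were 25172 bases apart. The array file places Pdx1 probe 1 at chr5:148087315-148087374 on the plus strand and the Cdx2 probe at chr5:148112547-148112606 on the minus strand (mm9). Their promoters are shown because these neighbours ran opposite ways on BRAFV600E 1, BRAFV600E 2 and Vehicle 2. Those of Hnf4a are shown because that gene has 2 listed starts. RefSeq start sites (GRCm38.p6) were listed for 5 of the 9 members. Each line holds the 250 bases before the start, read 5′ to 3′ along the gene, at chr5:147269847-147270096 (plus) for Pdx1, chr5:147307250-147307499 (minus) for Cdx2, chr2:163506607-163506856 (plus) for the upstream Hnf4a start and chr2:163546905-163547154 (plus) for the downstream one. Capitals mark matches on either strand to 3 short words, TTTATG for CDX factors, AGATAA for GATA factors and CAAAGT for HNF4 half-sites.
Pdx1: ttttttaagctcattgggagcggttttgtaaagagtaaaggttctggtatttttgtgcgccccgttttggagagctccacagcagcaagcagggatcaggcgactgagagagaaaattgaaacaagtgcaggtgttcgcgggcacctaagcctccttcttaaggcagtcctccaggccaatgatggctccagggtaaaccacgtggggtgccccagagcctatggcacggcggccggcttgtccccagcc
Cdx2: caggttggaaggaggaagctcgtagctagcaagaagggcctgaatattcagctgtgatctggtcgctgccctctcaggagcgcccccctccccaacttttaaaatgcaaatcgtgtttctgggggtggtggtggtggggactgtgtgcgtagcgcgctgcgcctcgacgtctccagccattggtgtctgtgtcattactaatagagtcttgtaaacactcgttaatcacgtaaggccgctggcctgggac
Hnf4a upstream: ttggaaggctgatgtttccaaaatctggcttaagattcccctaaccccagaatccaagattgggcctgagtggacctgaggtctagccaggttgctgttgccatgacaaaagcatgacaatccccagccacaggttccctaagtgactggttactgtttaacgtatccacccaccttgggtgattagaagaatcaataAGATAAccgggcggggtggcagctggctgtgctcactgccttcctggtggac
Hnf4a downstream: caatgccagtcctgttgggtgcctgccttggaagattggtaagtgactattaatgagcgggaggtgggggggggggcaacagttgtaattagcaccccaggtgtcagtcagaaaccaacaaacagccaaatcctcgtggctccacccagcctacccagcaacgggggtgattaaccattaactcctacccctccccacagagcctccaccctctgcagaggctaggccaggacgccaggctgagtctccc

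The upstream Hnf4a stretch held AGATAA 1 time, and the Pdx1, Cdx2 and downstream Hnf4a stretches held none of the 3 words. Among 32851 RefSeq promoter stretches of the same 250 bases, 10.8% held TTTATG, 9.99% held AGATAA and 12.6% held CAAAGT, so each word is common and a match is only a description of the letters.

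The paired probes of Hnf4a, Gata4 and Pdx1 read different stretches of the same gene, and the first 30 of their 60 bases are given here because the probes of a pair did not give the same result. The Hnf4a probes lie at chr2:163398548-163398607 and chr2:163378302-163378361 on the plus strand, the Gata4 probes at chr14:63817858-63817917 and chr14:63860003-63860062 on the minus strand, and Pdx1 probe 2 at chr5:148086570-148086629 on the plus strand (mm9). Gata5 probe 1, at chr2:180059867-180059926 on the minus strand, is added because it carries the word gagacaggg, which belongs to the B1 family of mouse repeats.
Hnf4a probe 1: ggggtaaaaaagagaaaaagccctcaaaaa
Hnf4a probe 2: ccgacaatgtgtggtagacaaagataagag
Gata4 probe 1: tagcttcgaaccaagattctgttgtaatca
Gata4 probe 2: tttgttttgatttttggtgacagttccgca
Pdx1 probe 1: gggttgaaggcaacctggctgatttcaaac
Pdx1 probe 2: ccctgagcttctgaaaactttgaggctgct
Gata5 probe 1: tttttgagacagggccttactatgtagctc

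That word stood in 0.734% of the RefSeq promoter stretches. Whether Gata5 probe 1 binds RNA of other genes was not tested, and its values are given as those of the probe.

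The comparison of BRAFV600E with Cre control asked how the identity factors stood 3 days after oncogene induction. Gata4 was the 1 member called, higher by 0.49 on the log2 scale, while Cdx1, Cdx2, Hnf4a, Hnf4g, Gata5, Gata6 and Pdx1 did not pass the test. Sox2 was not above background on any array. Testing was limited to probes that 6 or more of the 12 arrays read well above background, which 12 of the 14 member probes met, and it was called at an adjusted p under 0.05 in limma over all 38501 such probes. The call rate over all probes was 9.33%, with 5.12% called higher, so 1 of 12 is near the background. Before adjustment 6 of the 12 member probes had p under 0.05 in limma, against 27.4% of all probes. Both Pdx1 probes were among those 6, and paired probes of a gene are not separate members. The median log2 fold change of the 12 member probes was 0.32, and 10 of the 12 values were above 0, against a median of -0.01 over all probes. Counting 1 probe per gene, 1 of 8 members was called against 9.73% of all genes. The median of those 8 was 0.34, with 2 values below 0, against a median of -0.03 over all genes.

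**Figure D1:**
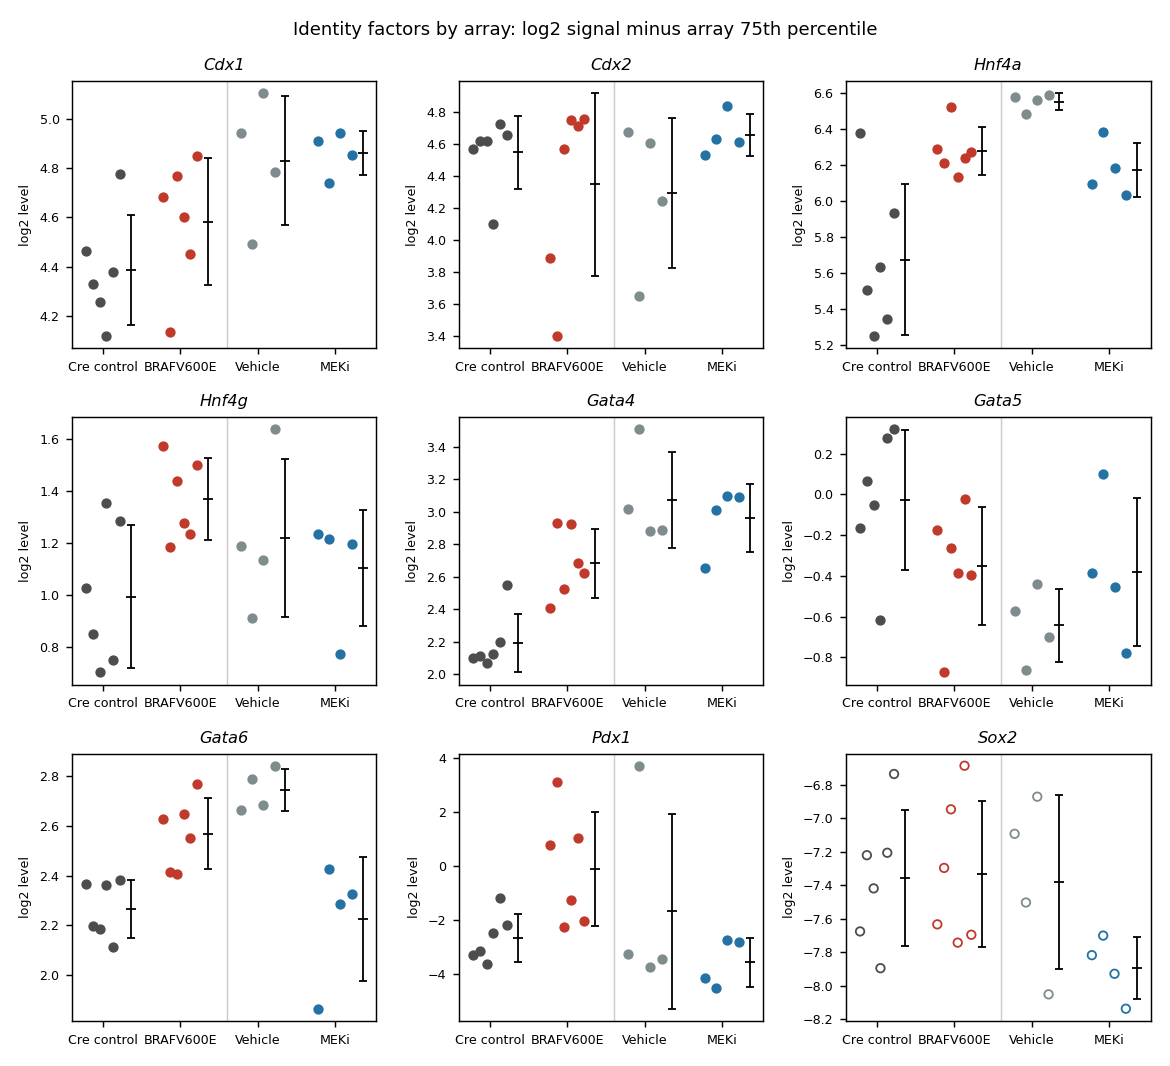
Log2 level (signal minus the array's 75th percentile) of the brightest probe of each gene, 1 point per array, with the group mean and SD as a bar beside the points; open points were not well above background. The 6 BRAFV600E points for Gata6 lie above the 6 Cre control points, Pdx1 spreads widely in BRAFV600E and Vehicle, and all Sox2 points are open. Vertical scales differ between panels.

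GATA4 gave the single call among the members. Gata4 probe 1 stood at 2.10, 2.11, 2.07, 2.12, 2.20 and 2.55 in Cre control 1 to 6 and at 2.41, 2.93, 2.53, 2.93, 2.69 and 2.63 in BRAFV600E 1 to 6. Cre control 6 lay among the mutant values, and 4 of the 6 BRAFV600E arrays lay above every control array. The means were 2.68 ± 0.21 and 2.19 ± 0.18 (SD, n = 6 each). The difference of 0.49 ± 0.14 (SE) on the log2 scale, or 1.41-fold, came with limma's adjusted p = 0.0469. That call was lost in 10 of the 12 fits that left out 1 array, namely without Cre control 1, 2, 3, 4 or 5 or BRAFV600E 2, 3, 4, 5 or 6, where the adjusted p lay between 0.0564 and 0.0989. It was also lost with slide as a block (log2 fold change 0.48, adjusted p = 0.183) and within slide 1 (0.48, adjusted p = 0.279). Both of these fits take the difference from BRAFV600E 1 and 2. Gata4 probe 2, 42085 bases away and above background on all 6 Cre control and 5 BRAFV600E arrays, gave 0.09 (adjusted p = 0.890).

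GATA6, the partner of GATA4 in gut endoderm, showed groups that did not overlap without a call. Gata6 probe 1 stood at 2.37, 2.20, 2.19, 2.36, 2.11 and 2.38 in Cre control 1 to 6 and at 2.63, 2.41, 2.41, 2.65, 2.55 and 2.77 in BRAFV600E 1 to 6. All 6 mutant values lay above all 6 control values. Cre control 2, 3 and 5, whose spike-in slope was out of range, held the lowest control values. The log2 fold change was 0.30 (95% interval 0.05 to 0.56) with limma's adjusted p = 0.123. Of the 12 member probes this was the 1 without overlap, against 6.41% of all probes and 4.03% in the higher direction. Gata6 probe 2 gave 0.34 (adjusted p = 0.264), with 3 of 6 mutant arrays above every control. The probes lie at chr18:11085494-11085553 and chr18:11057522-11057581 on the plus strand (mm9).

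Gata5 probe 1 ranged from -0.62 to 0.32 in Cre control and from -0.87 to -0.02 in BRAFV600E. The groups overlapped, and the log2 fold change of -0.32 (95% interval -0.74 to 0.09) did not pass limma's test (adjusted p = 0.293). Gata5 probe 2 was above background on 3 Cre control and 1 BRAFV600E array and was not tested.

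The nuclear receptor Hnf4a came close to the threshold on its bright probe. Hnf4a probe 1 stood at 6.38, 5.51, 5.25, 5.64, 5.34 and 5.94 in Cre control 1 to 6 and at 6.29, 6.21, 6.52, 6.13, 6.24 and 6.27 in BRAFV600E 1 to 6. Cre control 1 sat among the mutant arrays and the other 5 controls lay below all of them. The lowest controls were Cre control 2, 3 and 5, whose spike-in slope was out of range. The log2 fold change was 0.60 (95% interval 0.20 to 1.01) with limma's adjusted p = 0.061, and without Cre control 1 it was 0.74 with adjusted p = 0.0146. Quantile normalization reduced it to 0.34 (adjusted p = 0.345). It was called in 8 of 27 alternative settings. Hnf4a probe 2, 20186 bases upstream, gave 0.24 (adjusted p = 0.567).

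Hnf4g, the paralogue that shares enterocyte targets with HNF4A, ranged from 0.70 to 1.35 in Cre control and from 1.18 to 1.58 in BRAFV600E. Its log2 fold change was 0.38 (95% interval 0.05 to 0.70) with adjusted p = 0.132 in limma. A total of 3 mutant arrays lay above every control. The lowest controls were again Cre control 2, 3 and 5, at 0.85, 0.70 and 0.75. Its probe lies at chr3:3657177-3657236 on the plus strand (mm9).

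The caudal factors did not pass the test. The Cdx1 probe lies at chr18:61178558-61178617 on the minus strand (mm9). Cdx1 ranged from 4.12 to 4.78 in Cre control and from 4.14 to 4.85 in BRAFV600E, with a log2 fold change of 0.19 (95% interval -0.15 to 0.54, limma's adjusted p = 0.458). Cdx2 stood at 4.57, 4.62, 4.62, 4.10, 4.73 and 4.66 in Cre control 1 to 6 and at 3.89, 3.40, 4.57, 4.75, 4.72 and 4.76 in BRAFV600E 1 to 6. BRAFV600E 1 and 2 lay below every control, and the other 4 mutant arrays lay at 4.57 or above. The means were 4.35 ± 0.57 and 4.55 ± 0.23 (SD, n = 6 each), which differ by -0.20 (95% interval -0.73 to 0.33, limma's adjusted p = 0.638).

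The Cdx2 result differed between slides. The 2 BRAFV600E arrays of slide 1 averaged 3.64 and the 4 of slide 2 averaged 4.70. With slide as a block Cdx2 was called lower, at -0.91 with limma's adjusted p = 0.0279, and within slide 1 the same -0.91 had an adjusted p of 0.0983. With only the slide 2 arrays against all controls the value was 0.15 (adjusted p = 0.597), so its sign turned. The slide estimate rests on BRAFV600E 1 and 2, since the other mutant arrays share no slide with a control.

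PDX1 had the widest spread of the members. Pdx1 probe 1 stood at -3.27, -3.13, -3.61, -2.48, -1.18 and -2.15 in Cre control 1 to 6 and at 0.78, 3.10, -2.24, -1.26, 1.06 and -2.02 in BRAFV600E 1 to 6. BRAFV600E 1, 2 and 5 lay above every control, and the other 3 lay among the controls. The means were -0.10 ± 2.10 and -2.64 ± 0.89 (SD, n = 6 each). Their difference of 2.54 ± 0.83 (SE), or 5.81-fold, missed the threshold (limma's adjusted p = 0.0717). Without BRAFV600E 2 it was 1.90 (adjusted p = 0.109), and with the slide 2 arrays only it was 1.52 (adjusted p = 0.195). With slide as a block it was called at 4.58 (adjusted p = 0.0154), and within slide 1 likewise at 4.58 (adjusted p = 0.0262). These 2 fits hold the same contrast, which rests on BRAFV600E 1 and 2, and BRAFV600E 2 was an array that stood apart. Pdx1 probe 2 gave 1.91 (adjusted p = 0.145), with BRAFV600E 2 and 5 above every control and Cre control 2 (-2.09) just above BRAFV600E 1 (-2.14).

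The Sox2 probe, at chr3:34551260-34551316 on the plus strand (mm9), was well above background on 0 of the 20 arrays. Its measured values, from -8.14 to -6.68, are therefore only a bound, and no fold is given. The gastric factor was thus not detected with this probe on any array, including those where gastric and foregut genes were high.

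**Figure D2:**
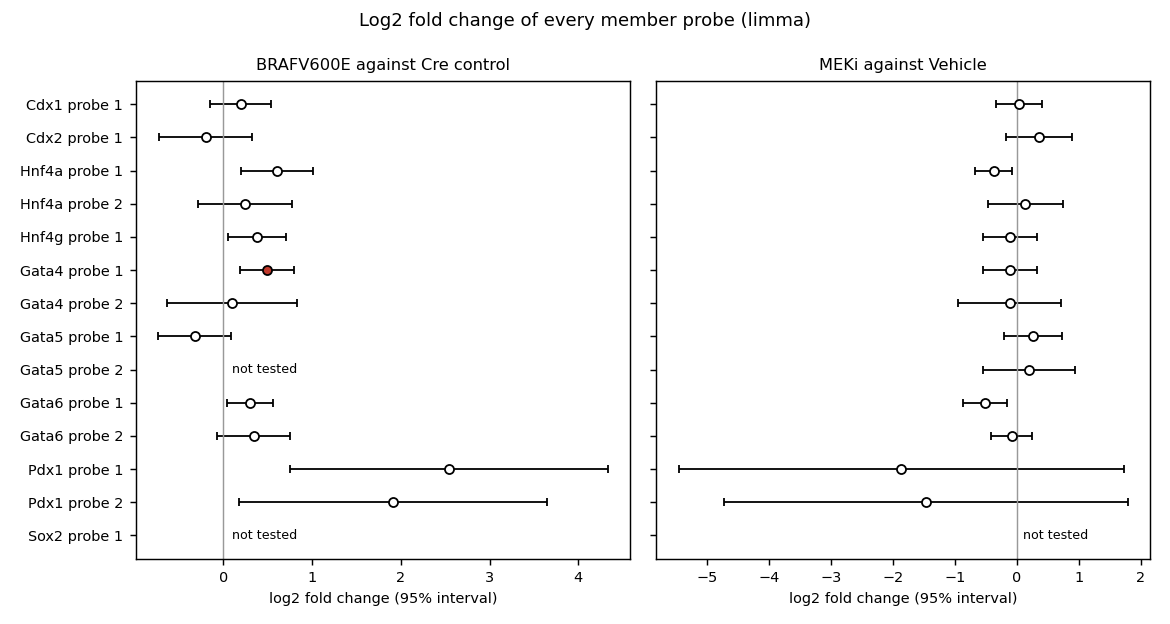
Log2 fold change of every member probe with its 95% interval in the fit across all probes, BRAFV600E against Cre control on the left and MEKi against Vehicle on the right; the filled point was called at an adjusted p under 0.05. The filled point is Gata4 probe 1 at 0.49, and the Pdx1 intervals span from 0.74 to 4.33 on the left and from -5.47 to 1.72 on the right for probe 1. Horizontal scales differ between panels.

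The comparison of MEKi with Vehicle asked whether blocking MEK altered the same factors. None of the 13 tested member probes was called by limma, with adjusted p between 0.205 and 0.962, against 0.927% of all 39249 probes and 1.02% of genes at 1 probe each. At an unadjusted p under 0.05 there were 2 of the 13, against 13.2% of all probes. Both of these, Gata6 probe 1 and Hnf4a probe 1, were lower on every MEKi array than on any Vehicle array, and groups without overlap made up 10.1% of all probes, 4.65% in the lower direction. Slide 3 has the groups in separate rows. The signal of Y-linked genes was high on all 4 MEKi arrays and on 2 of the 4 Vehicle arrays (Vehicle 1 and 3), so the sexes were not balanced here, whereas it was high on 3 of 6 Cre control and 4 of 6 BRAFV600E arrays. With that signal as a covariate no member was called and all probes called fell from 364 to 26.

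Gata6 probe 1 stood at 1.87, 2.43, 2.28 and 2.33 in MEKi 1 to 4 and at 2.66, 2.79, 2.69 and 2.84 in Vehicle 1 to 4. The log2 fold change was -0.52 (95% interval -0.88 to -0.16, limma's adjusted p = 0.205). Gata6 probe 2 gave -0.09 (adjusted p = 0.862), so the pair of probes differed in size.

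Hnf4a probe 1 stood at 6.10, 6.38, 6.18 and 6.03 in MEKi 1 to 4 and at 6.58, 6.48, 6.56 and 6.59 in Vehicle 1 to 4. The log2 fold change was -0.38 (95% interval -0.67 to -0.08, limma's adjusted p = 0.257). Hnf4a probe 2 gave 0.13 (adjusted p = 0.894).

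The remaining members showed smaller or less even values. Gata4 probe 1 gave -0.11 (limma's adjusted p = 0.871), with 1.08-fold between means of 2.96 ± 0.21 and 3.07 ± 0.30 (SD, n = 4 each). Cdx1 gave 0.03 (95% interval -0.34 to 0.40), Hnf4g gave -0.11 (-0.56 to 0.33) and Gata5 probe 1 gave 0.26 (-0.20 to 0.73). Gata5 probe 2, above background on 4 MEKi arrays and 1 Vehicle array, gave 0.20 (adjusted p = 0.869). Gata4 probe 2, above background on 4 MEKi and 3 Vehicle arrays, gave -0.12 (limma's adjusted p = 0.937).

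Cdx2 and Pdx1 turned on a single Vehicle array. Cdx2 stood at 4.53, 4.63, 4.84 and 4.61 in MEKi 1 to 4 and at 4.67, 3.65, 4.61 and 4.24 in Vehicle 1 to 4. Pdx1 probe 1 stood at -4.12, -4.51, -2.74 and -2.80 in MEKi and at -3.25, 3.72, -3.71 and -3.44 in Vehicle. Vehicle 2 was the lowest for Cdx2 and the highest for Pdx1. The log2 fold changes were 0.36 (limma's adjusted p = 0.581) for Cdx2 and -1.87 (adjusted p = 0.690) for Pdx1 probe 1, and without Vehicle 2 they were 0.15 and -0.08. Pdx1 probe 2, above background on 3 MEKi arrays and on Vehicle 2, gave -1.47 (limma's adjusted p = 0.740). The exocrine pancreas genes were high on the same Vehicle array, and their part in its Pdx1 level was not tested.

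Over the 20 arrays Pdx1 was highest on Vehicle 2, BRAFV600E 2, BRAFV600E 5 and BRAFV600E 1, in that order, and lay between -4.51 and -1.18 on the others. Cdx2 was lowest on BRAFV600E 2, Vehicle 2 and BRAFV600E 1, and lay between 4.10 and 4.84 on the others, including BRAFV600E 5 at 4.72. The neighbouring genes thus ran opposite ways on 3 of the 4 arrays with high Pdx1. BRAFV600E 2 had a Pdx1 level of 3.10 with the exocrine pancreas sum within the range of the other arrays. The log2 of the summed endocrine pancreas signal was 3.27 on BRAFV600E 2 and 4.14 on Vehicle 2, above the 1.20 to 1.94 of the other arrays. The mean log2 level of these 5 genes was -2.42 on BRAFV600E 2, within the -3.34 to -2.32 of the other arrays. On Vehicle 2 that mean was 0.13, above them. The part of endocrine pancreas signal in the Pdx1 levels was not tested.

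Genes that mark regions of the upper gut were read on the same arrays, and those in the next sentences were singled out after their values were seen. Cybrd1, the duodenal iron reductase, stood at 6.48 on BRAFV600E 2 and 6.29 on Vehicle 2, and between -2.99 and -0.31 elsewhere. Slc40a1, the iron exporter ferroportin, stood at 5.01 and 5.50 on those arrays. Nkx6-3, a homeobox factor of the gastric antrum, stood at 2.82 and 2.94, and between -6.48 and -3.06 elsewhere. The list of 10 proximal small intestine genes was not higher in its sum on these arrays. Its summed level was 9.21 on BRAFV600E 2, below the 9.28 to 10.28 of the other 18 arrays, and 9.69 on Vehicle 2, within that range. Its mean log2 level, 4.63 and 5.33, lay above the 3.26 to 4.16 elsewhere.

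Some products of the gastric mucosa were high on the same arrays and others were not. Ctse, the gastric aspartic protease cathepsin E, stood at 5.72 on BRAFV600E 2 and 5.13 on Vehicle 2, and Tff2, a trefoil peptide of gastric and duodenal glands, at 6.26 and 4.54. Elsewhere Tff2 lay between -7.03 and -4.87. Muc5ac, the gastric surface mucin, stood at -2.39 and -2.69 on these arrays and between -3.07 and -1.97 elsewhere, and Atp4a, the proton pump of parietal cells, at -3.86 and -2.78 against -3.98 to -2.40. Lct, the brush border lactase, was lowest on these arrays, at -2.23 on BRAFV600E 2 and 3.70 on Vehicle 2, against 5.49 to 8.30 elsewhere. In group means none of these genes passed limma's test, for instance Lct at -2.89 (adjusted p = 0.174) and Ctse at 2.72 (adjusted p = 0.238) in BRAFV600E, and Tff2 was above background on too few arrays to be tested. The position from which each piece of gut was taken was not given, and its part in these levels was not tested.

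**Figure D3:**
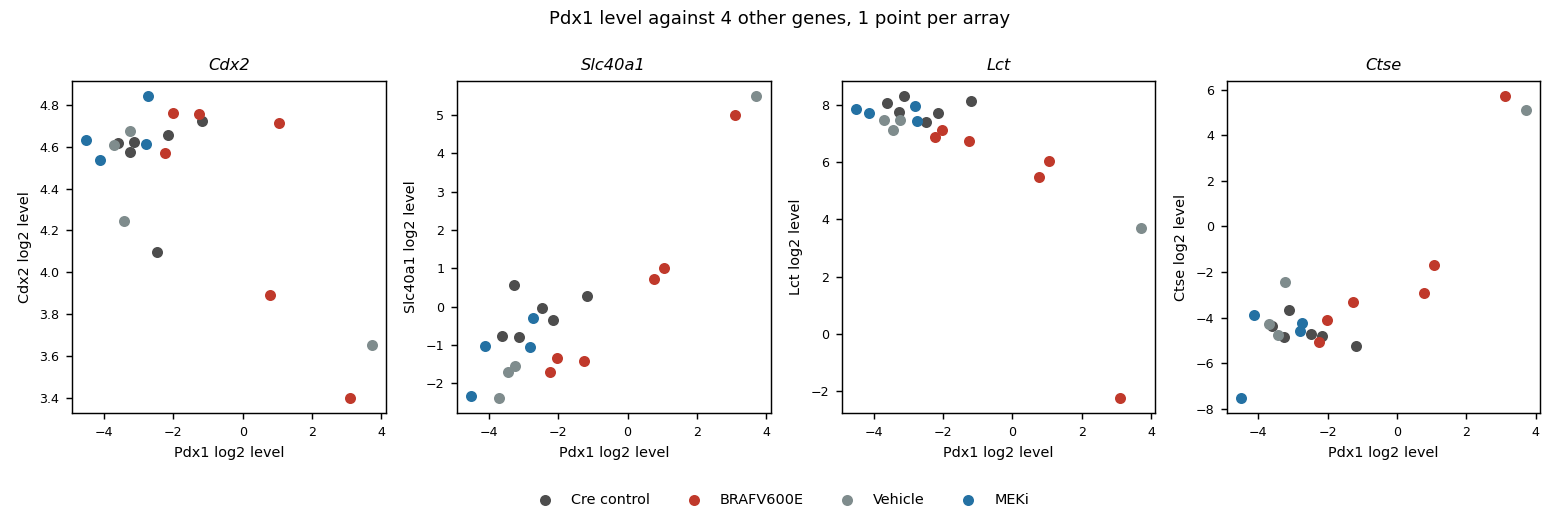
Log2 levels of Cdx2, Slc40a1, Lct and Ctse against that of Pdx1 probe 1, 1 point per array, coloured by group. BRAFV600E 2 and Vehicle 2 sit at the right with Pdx1 at 3.10 and 3.72, low Cdx2 and Lct, and high Slc40a1 and Ctse.

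Genes most like each member were named by Pearson correlation of log2 levels over the 20 arrays after each group's mean was removed, among 25647 genes. The arrays share slides and RNA handling, so this is a description. For Pdx1 they were Tspan12 (0.970), Sult6b2 (0.957) and Slc40a1 (0.950), and for Cdx2 Chchd7 (0.951), Mfsd6l (0.940) and Luzp1 (0.935). Both sets rest largely on the arrays that stood apart, since Tspan12 was 2.07 on BRAFV600E 2 and 2.02 on Vehicle 2, and Chchd7 was 3.51 and 4.10 there. The nearest gene was Prdx6 for Cdx1 (0.894), ahead of Taf1c (0.891) and Ano9 (0.861). For Hnf4a they were Mbp (0.903), Rdh18-ps (0.893) and Gtf2ird1 (0.885), and for Hnf4g BB160619 (0.863), Shisa3 (0.846) and Pter (0.809). The GATA factors had Gm38581 (0.819), 4931408D14Rik (0.799) and Mical2 (0.793) for Gata4. Gata4 probe 1 was also highest of its group on the arrays that stood apart, at 2.93 on BRAFV600E 2 and 3.51 on Vehicle 2. BRAFV600E 4 stood at 2.93 as well. Gm38581, 4931408D14Rik and Mical2 were likewise highest of their groups on BRAFV600E 2 and Vehicle 2. Gata5 had Mfsd2b (0.902), Gm45231 (0.900) and Clca3a1 (0.864), and Gata6 had Impa1 (0.770), Lonp2 (0.770) and Pisd-ps1 (0.765).

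Of 20 intestinal regulators outside the members, such as Foxa2, Isx and Prox1, none was called by limma in either comparison, with a median log2 fold change of 0.13 in BRAFV600E and -0.08 in MEKi, where all genes had -0.03 and 0.03. Unadjusted p was under 0.05 for 8 of the 20 in BRAFV600E and 2 in MEKi, against 27.4% and 13.2% of all probes. With slide as a block 3 of the 20 were called in BRAFV600E, against 5.13% of all probes. With 1 array left out 0 to 3 were called, the most without Cre control 4, where 13.8% of all probes were called.

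Gastric genes were called in small number and with large size. Of 17 tested gastric and foregut genes, 2 were called higher in BRAFV600E and none lower, which is 11.8% against 9.73% of all genes, and 1 or 2 were called with 1 array left out. Anxa10, an annexin of gastric epithelium, was above background on no Cre control array and on all 6 BRAFV600E arrays, from -1.64 to 5.87, and was at least 113-fold higher (limma's adjusted p = 0.000612). Aqp5, the water channel of pyloric glands, stood at 0.04 ± 0.73 against -6.11 ± 1.07 (SD, n = 6 each), which is higher by 6.14 (adjusted p = 3.4e-05), and passed background on 1 of the 6 Cre control arrays. In MEKi, 1 of 16 was called (6.25% against 1.02% of all genes), Aqp5, lower by 5.28 at -5.58 ± 0.58 against -0.30 ± 0.85 (SD, n = 4 each, limma's adjusted p = 0.00543) and past background on 2 of the 4 MEKi arrays. Anxa10 gave -4.71 in MEKi (adjusted p = 0.218). Both genes were above background on all 6 BRAFV600E arrays, whereas Tff2 and Nkx6-3 were so on 3 of them. In Cre control Tff2 was above background on 0 arrays and Nkx6-3 on 5 of 6. Nkx6-3 was so on all 4 MEKi and all 4 Vehicle arrays. Anxa10 and Aqp5 thus met the filter of 6 arrays through the group in which they were high. In MEKi, Aqp5 met the filter of 4 arrays through Vehicle in the same way. The study had already reported both genes as upregulated in mutant tissue and dependent on MAPK. Their p-values and the count of 2 are therefore a description and not separate support. With the slide 2 arrays only, Aqp5 gave 5.76 (adjusted p = 0.000518), and Anxa10 was then above background on too few arrays to be tested.

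Enterocyte genes that CDX2 and HNF4A are known to bind or activate moved in both directions. Of 28 tested, 1 rose and 2 fell in BRAFV600E, which is 10.7% against 9.73% of all genes, and their median log2 fold change was -0.39. Alpi, intestinal alkaline phosphatase, rose by 1.84 (6.01 ± 0.68 against 4.17 ± 0.33, limma's adjusted p = 0.00284). Mep1a, a brush border metalloprotease, fell by 3.00 (0.18 ± 0.70 against 3.18 ± 0.29, adjusted p = 0.00011), and Apoc3, an apolipoprotein of lipid-carrying particles, fell by 1.41 (adjusted p = 0.0282). With slide as a block 9 of the 28 were called, 8 of them lower. Of all probes 5.13% were called in that fit, and 38.7% of those were higher. That fit rests on BRAFV600E 1 and 2, and BRAFV600E 2 was an array that stood apart. In MEKi none of the 28 was called, and the 3 genes (Alpi, Mep1a and Apoc3) had log2 fold changes of -1.69, 1.34 and 1.34. Unadjusted p was under 0.05 for 4 of the 28 in MEKi, against 13.2% of all probes.

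Regional genes of the small intestine were called in both the proximal and the distal list. In BRAFV600E the shares were 20% and 40%, against 9.73% of all genes. Of 10 proximal genes, 2 fell in BRAFV600E, the hormone gene Gip by 1.18 (limma's adjusted p = 0.00406) and the glutathione transferase Gstm3 by 1.31 (adjusted p = 0.00189). Of 10 distal genes, 3 fell, namely Cubn by 5.31, the preproglucagon gene Gcg by 1.84 and the bile acid exporter subunit Slc51a by 1.27, with adjusted p of 0.00146, 0.0335 and 0.0235. The hormone gene Pyy rose by 1.99 (adjusted p = 0.0198). Gip, Gcg and Pyy also belong to the enteroendocrine list given below, so these lists share them and their calls are not separate. Cubn, the ileal receptor cubilin, stood at 4.10 to 4.48 in Cre control, at -4.95 to 0.63 in BRAFV600E and at -3.43 to 2.65 in Vehicle. In limma no gene of either list was called in MEKi. There 2 proximal and 3 distal genes had an unadjusted p under 0.05, against 13.2% of all probes. With the slide 2 arrays only, 3 proximal and 3 distal genes were called, against 5.1% of all probes.

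Some cell type markers were called in BRAFV600E, where 9.73% of all genes were called. The shares were 30% of epithelial, 16.7% of smooth muscle and mesenchyme, and 30% of glia and neuron genes. They were 43.8% of enteroendocrine and 28.6% of lymphoid genes, and each list is short. Among 10 epithelial genes Krt19, Krt18 and Cdh1 were higher by 0.94, 0.87 and 0.61 in limma, and their part in the values of the members was not tested. Of 12 smooth muscle and mesenchyme genes Des and Actg2 were higher by 0.94 and 0.71, and 2 of the 12 values were below 0. Of 10 enteric glia and neuron genes 3 were called lower and all 10 log2 fold changes were below 0, with Uchl1 at -1.03 and Prph at -0.88. With 1 array left out 1 to 5 of them were called, the fewest without BRAFV600E 4 or Cre control 2 or 3. Of 16 enteroendocrine genes 6 were lower, led by Chga at -1.99 and including Pax4 and Isl1, and 1 was higher. Of 7 lymphoid genes Cd3g and Cd8a were lower, at -0.98 and -0.83, and none was called when BRAFV600E 1, 2 or 3 or Cre control 1, 2, 5 or 6 was left out. None of 6 exocrine pancreas, 4 endocrine pancreas or 3 blood GATA genes was called by limma. Of them 1, 0 and 0 had an unadjusted p under 0.05, against 27.4% of all probes. With slide as a block no smooth muscle or glia and neuron gene was called. In MEKi no gene of these lists was called by limma. An unadjusted p under 0.05 was reached by 2 epithelial, 2 glia and neuron, 3 enteroendocrine and 2 lymphoid genes. The share of all probes was 13.2%. The median of 8 exocrine pancreas genes was -2.87 in MEKi, with Vehicle 2 as the high array.

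**Figure D4:**
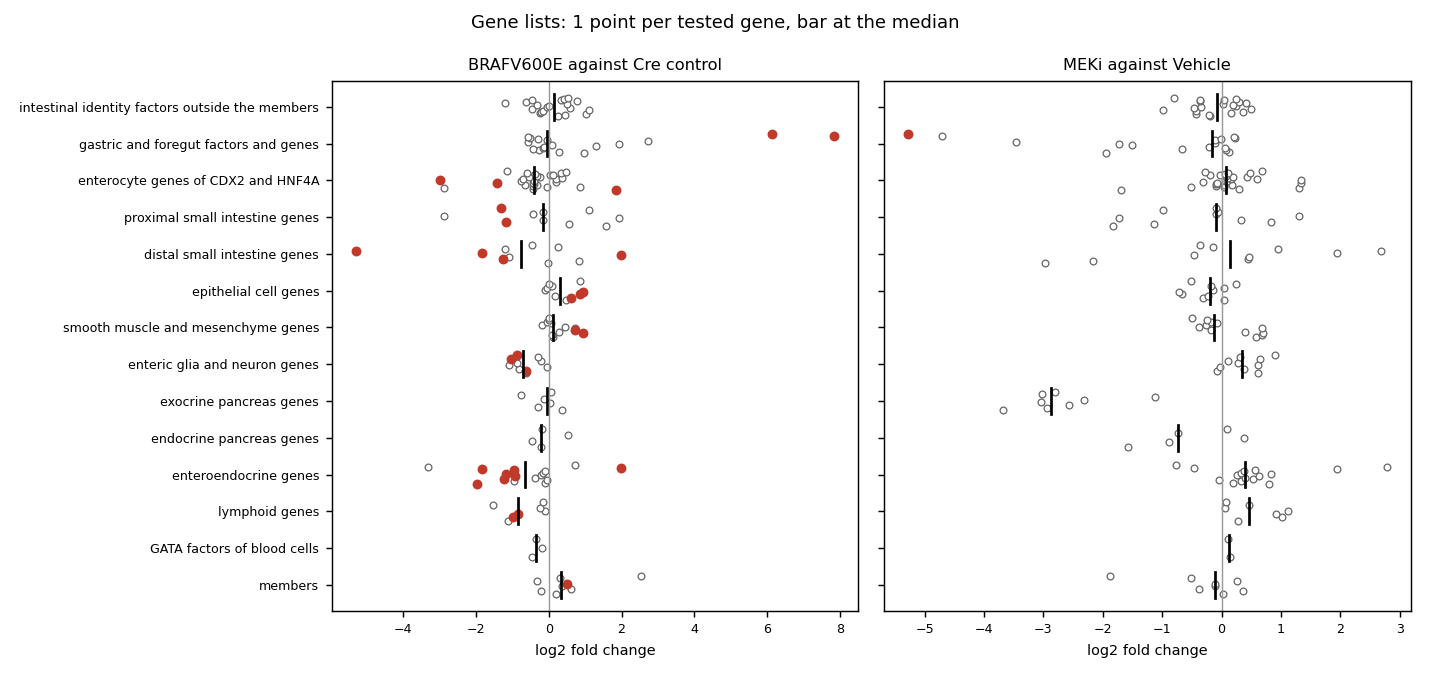
Log2 fold change of every tested gene of each list, 1 point per gene at its brightest probe, with filled points called at an adjusted p under 0.05 and a bar at each list's median. Anxa10 and Aqp5 are the filled points at the far right of the left panel, and Aqp5 is the filled point in the right panel at -5.28.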

How the data were processed

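Gene expression was measured on 20 one-colour Agilent arrays of mouse intestinal tissue. The authors deposited scanner output of Feature Extraction 10.5.1.1, and the values used were its processed signal intensity per spot, already background-subtracted per the file headers. The deposited series value table matched these signals within 0.5% for 100% of values and was not used further. No sample column was left unmatched.

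Control spots were removed, spots of a probe were averaged, and log2 intensity minus the 75th percentile of each array was tested with limma 3.58.1 in R 4.3.3 (lmFit, eBayes, two-sided, Benjamini-Hochberg over all probes read well above background by 6 or more of 12 arrays, or 4 or more of 8). The procedure was tested on simulated data. Each p-value sets a group difference against the spread left between arrays, and 20 arrays limit the precision. The groups compared also differed in part by slide or by array row, so the p-values do not isolate variation between mice. Gene lists use the brightest probe per gene, and Gif and Trac were not matched on the array. Gene names came from the array file, with accessions matched to RefSeq for 34023 probes. Probe positions are those of the array file, and exons and UTRs were not assigned, as no mm9 annotation was used here. Groups came from the labels. A treatment text common to all 20 arrays describes atorvastatin and fits no group, so it was not used.

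Every member probe is described. From each list at most 4 called genes with the largest change were named, plus cell type markers, and for each member the 3 most correlated genes; some genes of the lists are not reported here. The members and lists were chosen with earlier results of these data known. Alternatives covered scaling, background correction, probe filter, variance model, slide, a covariate and each array left out, and the slide 2 comparison was chosen after seeing the data.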

Additional observations from a re-analysis of the deposited data

Results flagged for a closer look

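Of 56 sets of member probe values (a probe in a group), 7 had a highest or lowest array whose gap to the next exceeded Dixon's 95% limit for the group's range, and chance flags about 1 in 20 sets. Pdx1 probe 1 on Vehicle 2 was 3.72, with the next Vehicle array at -3.25, and Pdx1 probe 2 on the same array was 1.30, with the next at -4.91. Cdx2 on Cre control 4 was 4.10 (next 4.57), and Gata4 probe 1 on Cre control 6 was 2.55 (next 2.20). Hnf4a probe 2 on BRAFV600E 6 was -1.28 (next -0.41). Hnf4g on MEKi 3 was 0.77 (next 1.19), and Gata6 probe 2 on MEKi 1 was 0.72 (next 1.10).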

How the results depend on the processing

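Member probes called in BRAFV600E numbered 1, and were 0 with quantile normalization, no filter on dim probes, the slide 2 arrays only and arrays with the spike-in slope in range, 2 with probes above background on every array, trend and robust variance, array weights, all 20 arrays in 1 fit and slide as a block, 3 with median centring and normexp, 9 without scaling, and 0 to 1 with 1 array left out. All probes called numbered 3591, and were 16289 without scaling (98.2% higher), 9253 with normexp (31.1% higher), 5768 with all 20 arrays, 2390 with no filter, 1974 with slide as a block (38.7% higher), 1958 for slide 2 only, 671 within slide 1 (28% higher), 1 with the spike-in slope in range (3 against 2 arrays), and 1897 to 5165 with 1 array left out. In the main setting 54.9% were higher, and median centring gave 76.8%. The median of all probes moved from -0.01 to 0.80 without scaling, 0.11 with median centring and -0.19 with normexp. In MEKi no member was called in any setting, and all probes called numbered 364, and were 55 without scaling, 145 with no filter, 602 with trend and robust variance, 1348 with array weights, 26 with the Y-linked signal as covariate, and 47 to 302 with 1 array left out.

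Log2 fold changes that changed sign in BRAFV600E were Cdx2 (0.61 without scaling, 0.15 for slide 2 only), Gata5 probe 1 (0.48 without scaling), Cdx1 (-0.043 with the spike-in slope in range) and Gata4 probe 2 (-0.24 with normexp, -0.16 for slide 2 only, -0.049 to 0.28 with 1 array left out). In MEKi they were Hnf4a probe 2 (-0.059 with array weights, -0.063 with the Y-linked covariate), Cdx1 (-0.037 and -0.16 in the same settings), and, with that covariate, Gata4 probe 1 (0.012), Gata5 probe 2 (-0.17) and Gata4 probe 2 (0.21). With 1 array left out, MEKi values ranged from -0.22 to 0.025 for Hnf4g, -0.057 to 0.28 for Hnf4a probe 2, -0.18 to 0.033 for Gata4 probe 1, -0.082 to 0.12 for Cdx1, -0.14 to 0.40 for Gata5 probe 2, -0.14 to 0.013 for Gata6 probe 2 and -0.44 to 0.077 for Gata4 probe 2. The cause was not tested. Dim probes such as Gata4 probe 2 and Pdx1 probe 2 lie near background, which limits them. No paired analysis was possible because the labels state no replicate numbers shared between groups, and the animal numbers in the titles are not said to pair mice.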
